A study of Drosophila melanogaster with 12 samples.

Results

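Kc167 cells are a Drosophila melanogaster line derived from embryos, with features of blood cells (hemocytes). The deposited RNA-seq table holds 12 libraries of these cells, all transfected with double-stranded RNA (dsRNA) for 5 days. The comparison described here set 3 libraries of cells given dsRNA against dGcn5, listed as Gcn5, beside 3 control libraries given dsRNA against yellow, a pigmentation gene listed as y. The remaining libraries, 3 labelled Elp3 and 3 labelled nej, are used only where named. Of 23882 features in the table, 9820 passed a filter on low counts, and all of these were tested. The account covers their functions outside the DNA repair and cell-cycle genes that the study listed. The replicates are not stated to come from separate cultures, so that p-values measure the spread between these libraries of 1 cell line.

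Gcn5 is a histone acetyltransferase, an enzyme that transfers acetyl groups to lysines of histone tails, histone H3 among them. It works as the catalytic subunit of large coactivator complexes, SAGA and ATAC in Drosophila, which are recruited to promoters and help RNA polymerase II to begin transcription. dsRNA that enters fly cells is cut into small interfering RNAs, which direct the degradation of the matching mRNA.

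The primers below define which stretch of each mRNA the dsRNA covered. They are printed without the T7 promoter tail that all of them share, so that the capitals mark the part specific to the gene. Gcn5 lies on chromosome 3L and y on chromosome X.
dGcn5 forward: ATGAAATCGGTGTCCGAGTC
dGcn5 reverse: CCAGTTTATGCGGGCTACAT
yellow forward: AAAAACTAAGCCAACGTCATC
yellow reverse: CCGTGGATATAGGCAAAAA

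Gcn5 (3L, 12521129 to 12524014, minus strand, BDGP6.32) was at 148, 137 and 131 CPM (counts per 1e+06 counts of the tested features, scaled with TMM factors) in the control libraries. In the dGcn5 libraries it was at 29.0, 43.9 and 48.1 CPM, below every control library. The mean was 29.1% of the control, 40.4 ± 10.02 against 139 ± 8.65 CPM (SD, n = 3 each), with an exact two-sided permutation p of 0.1, the smallest that 3 against 3 libraries allow. In edgeR's quasi-likelihood test, which adjusts over all 9820 features, its log2 fold change was -1.78 ± 0.25 (SE) with an unadjusted p of 0.000129 and an adjusted p of 0.421. DESeq2 on the same 6 libraries gave an adjusted p of 1.23e-05. The control target y was at 10.8, 14.7 and 45.0 CPM in the cells given yellow dsRNA and at 42.4, 16.5 and 11.1 CPM in the cells given dGcn5 dsRNA, so that the groups overlapped.

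Control replicate 3 and dGcn5 replicate 3 stood apart from the libraries of their own groups. They were also the deepest and the shallowest of the 12 libraries, at 23198850 and 19102102 counts, with the other 4 libraries compared here at 20636884 to 22238424. The part that depth has in the results was not tested. The libraries differed in how levels followed transcript length. In control replicates 1 and 2 the log2 CPM, relative to the mean of the 6 libraries, went up by 0.20 and 0.21 per doubling of exon length, while in control replicate 3 it went down by a slope of -0.29. The slopes were -0.07, -0.16 and 0.11 in the dGcn5 libraries. Sample quality weights from limma were 0.11 for control replicate 3 and 0.23 for dGcn5 replicate 3, against 1.18 to 5.19 for the others. Results are therefore given beside a fit that removes the length trend and fits without these libraries. The part that transcript length has in any 1 difference was not tested.

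No feature was called at an adjusted p under 0.05 in edgeR (0% of 9820), where the smallest adjusted p was 0.421. At an unadjusted p under 0.05 there were 360 features, 3.67% of those tested, 198 higher (2.02%) and 162 lower (1.65%) in dGcn5 libraries. All 3 dGcn5 libraries lay above all controls in 394 features (4.01%) and below them in 406 (4.13%). DESeq2 called 47 of 10686 features with an adjusted p (0.44%), 26 higher (0.243%) and 21 lower (0.197%), and limma-voom with quality weights called 4765 (48.5%). Without replicate 3 of both groups, edgeR called 4275 of 9841 (43.4%). The features it then called higher had a median exon length of 1295 bp and those called lower of 4698 bp, against 2109 bp over all features tested. The median log2 fold change over all features was -0.03. For 4375 features (44.6%) the whole 95% interval fell inside ±1 on the log2 scale, and the interval reached a median of 0.80 to either side of its centre. Log2 fold changes were below 0 in 5198 features (52.9%). Together 800 features (8.15%) were free of overlap, and with the length correction 4.38% of features were higher and 3.9% lower at an unadjusted p under 0.05.

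The features with the lowest p outside the study's repair and cell-cycle lists were ranked, 12 in each direction, Gcn5 itself among the lower ones. They are a description of this ranking, since the same test chose them. The 24 features had adjusted p between 0.421 and 0.636 in edgeR. DESeq2 called all of them, with a share of 0.44% over all features, but it used the same 6 libraries and is no separate support. By the same selection no dGcn5 library overlapped a control library in any of the 24, beside 8.15% of all features without overlap. Their sign held with each library left out in turn, as it did in 5384 of the 9820 features. Most of the 24 were genes of low level in controls: the median was 2.54 CPM for the 12 higher features and 6.05 CPM for the 12 lower ones, against 31.6 CPM over all features tested. The 12 lower features were all protein-coding, while the 12 higher ones held 8 protein-coding genes, 2 pseudogenes and 2 transposable element copies. Just outside this set were FBti0019234, with edgeR unadjusted p = 0.00163, and dysc, with edgeR unadjusted p = 0.00190.

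**Figure D1:**
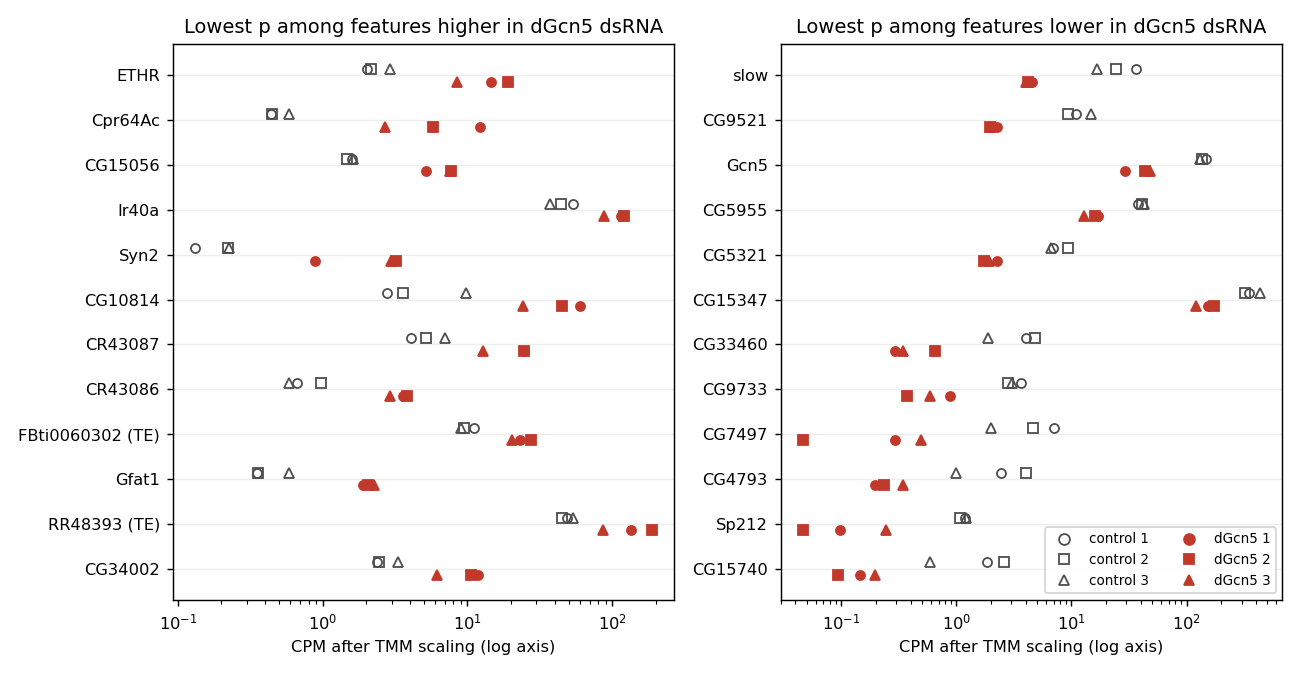
CPM after TMM scaling (log axis) of the 12 features with the lowest p in each direction, per library, with open symbols for the 3 control libraries and filled symbols for the 3 dGcn5 libraries; TE marks a transposable element copy. In each of the 24 features the filled symbols lie wholly to one side of the open ones, with slow between 4.02 and 4.55 CPM in dGcn5 libraries and at 16.6 to 36.1 CPM in controls.

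Apart from Gcn5 itself, the lower features were led by slow and CG9521. The gene slow encodes a secreted matrix protein found where muscles attach to tendon cells through integrins. It was at 36.1, 24.4 and 16.6 CPM in controls and at 4.55, 4.18 and 4.02 CPM in dGcn5 libraries. These 3 libraries were nearly equal, at 16.5% of the control mean, with a log2 fold change of -2.60 ± 0.35 and edgeR unadjusted p = 9.17e-05. CG9521, a member of the glucose-methanol-choline (GMC) oxidoreductase family, was at 10.98, 9.25 and 14.8 CPM in controls and at 2.25, 1.97 and 1.96 CPM in dGcn5 libraries. Its level was 17.7% of the control, and it had the lowest adjusted p of all features in DESeq2, 1.25e-08.

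The remaining lower features included CG33460, CG9733, CG4793 and Sp212, which belong to the serine protease family. That family was not followed as a list, so that these genes are described singly. CG33460 was at 4.06, 4.83 and 1.89 CPM in controls and at 0.293, 0.657 and 0.343 CPM in dGcn5 libraries. Sp212 was at 1.19, 1.07 and 1.22 CPM against 0.0978, 0.0469 and 0.245 CPM. CG9733 and CG4793 were at 19.4% and 10.3% of their control means. All 4 genes were thus below 5 CPM in every control library and lower in every dGcn5 library. CG5321, a predicted gamma-butyrobetaine dioxygenase, the enzyme type that makes carnitine, was at 26.0% of the control. CG7497 stood at 7.01, 4.60 and 1.98 CPM in controls and at 0.293, 0.0469 and 0.490 CPM in dGcn5 libraries, the largest difference of the 24, with a log2 fold change of -4.01 ± 0.82. The most abundant of the lower features was CG15347, which stood at 347, 321 and 431 CPM in controls and at 153, 172 and 120 CPM in dGcn5 libraries. CG5955 and CG15740 were at 37.8% and 8.68% of their control means.

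Among the higher features ETHR came first. It encodes the receptor of ecdysis-triggering hormone, the peptide that starts the shedding of the old cuticle at a molt. Its level was 2.03, 2.14 and 2.93 CPM in controls and 14.5, 19.2 and 8.43 CPM in dGcn5 libraries. All 3 dGcn5 libraries lay well above the controls, with a mean of 592% of the control, a log2 fold change of 2.56 ± 0.40 and edgeR unadjusted p = 0.000281. Cpr64Ac, a cuticle protein gene of the Rebers and Riddiford family, was at 0.441, 0.447 and 0.586 CPM in controls and at 12.1, 5.82 and 2.69 CPM in dGcn5 libraries. It had the largest log2 fold change among the higher features, 3.79 ± 0.64, and dGcn5 replicate 3 was the lowest of its group for both genes. Proc-R, the receptor of the neuropeptide proctolin, which DESeq2 also called, was at 1.46, 2.28 and 1.13 CPM against 11.6, 5.07 and 4.36 CPM.

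Syn2, a syntrophin that binds the dystrophin complex under the cell membrane, was almost unread in controls, at 0.132, 0.223 and 0.226 CPM. The dGcn5 libraries held it at 0.880, 3.24 and 2.99 CPM, with a log2 fold change of 3.57 ± 0.68. Of the 8 dystrophin complex genes it was the only one at p under 0.05. Its paralog Syn1 was at 0.529, 3.75 and 0.180 CPM in controls and at 4.20, 9.81 and 1.86 CPM in dGcn5 libraries, which overlapped (edgeR unadjusted p = 0.127). The list's median log2 fold change was 0.03.

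Gfat1, which encodes the first enzyme of the pathway that makes hexosamine sugars for chitin and glycosylation, was at 0.353, 0.357 and 0.586 CPM in controls. It was at 1.91, 2.07 and 2.25 CPM in dGcn5 libraries, 480% of the control and nearly equal among them. Gfat2, its far more abundant paralog, stood at 93.0, 98.6 and 110 CPM in controls and at 152, 147 and 114 CPM in dGcn5 libraries, with edgeR unadjusted p = 0.0685. Both genes were higher in each dGcn5 library than in any control library. The other 11 members tested of the hexosamine and chitin list all had an unadjusted edgeR p of 0.334 or more, with log2 fold changes as far apart as -0.57 for the chitinase Cht6 and 0.25 for Gnpnat, and the list's median was -0.04.

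CG10814, like CG5321 a predicted gamma-butyrobetaine dioxygenase, went the opposite way from CG5321. It was at 2.78, 3.57 and 9.79 CPM in controls and at 59.7, 45.3 and 24.3 CPM in dGcn5 libraries, 801% of the control. Amt, an ammonium transporter, was called by DESeq2 (adjusted p = 0.00168) although dGcn5 replicate 3 was not above the controls. It was at 5.29, 5.36 and 5.28 CPM in controls and at 60.1, 104.6 and 4.95 CPM in dGcn5 libraries. Replicates 1 and 2 were thus far above the controls, and replicate 3 was below them. Gal, a beta-galactosidase, was at 467% of the control and ltl, a leucine-rich repeat protein known as larval translucida, at 388%, both without overlap, and Gal shares 1266 bp of exon with an antisense RNA and 165 bp with Tsp26A on the opposite strand. CG15056 was at 1.59, 1.47 and 1.62 CPM against 5.18, 7.75 and 7.54 CPM.

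The other groups of the series show how wide these levels range, given here in CPM scaled over all 12 libraries. The Elp3 count was 1906 to 4111 CPM in libraries labelled Elp3, and the nej count 309 to 3252 CPM in those labelled nej. Each was above every library of the other groups, while the paper reports knocking down Elp3 in Kc cells, checked by RT-qPCR. Whether reads of the dsRNA itself entered these counts, or those of Gcn5 and y, was not tested. Both labelled groups share the control libraries with the dGcn5 comparison, so that each is given by its own values. Syn2 ranged from 0.867 to 3.18 CPM in dGcn5 libraries, from 0 to 0.138 CPM in those labelled Elp3 and from 0.0969 to 0.411 CPM in those labelled nej. The level of CG9521 was 1.93 to 2.21 CPM with dGcn5 dsRNA, 6.49 to 13.7 CPM in libraries labelled Elp3 and 7.04 to 15.3 CPM in those labelled nej, the latter 2 overlapping the controls at 9.09 to 14.4 CPM. ETHR, in contrast, was at 8.50 to 18.8 CPM with dGcn5 dsRNA and at 6.33 to 22.8 CPM in libraries labelled Elp3. The gene slow was at 4.05 to 4.48 CPM with dGcn5 dsRNA, at 5.48 to 9.91 CPM in libraries labelled Elp3 and at 0.582 to 8.82 CPM in those labelled nej, all below its controls at 16.3 to 36.5 CPM. CG33460 was at 0.289 to 0.644 CPM with dGcn5 dsRNA, at 0.190 to 1.12 CPM in libraries labelled Elp3 and at 0 to 0.334 CPM in those labelled nej, with controls at 1.85 to 4.74 CPM. The other 3 protease genes CG9733, CG4793 and Sp212 were likewise below every control library in both of these groups, the highest values being 1.598, 0.967 and 0.856 CPM in libraries labelled Elp3. These features were chosen as examples after their values were seen and do not stand for the 24, and differences between the treatments were not tested.

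Below, p under 0.05 means edgeR's unadjusted p, and no feature so named had an adjusted p under 0.421 in edgeR. Functions were then followed through lists of genes, read by the number of members in each direction and the median log2 fold change, beside -0.03 over all features. Of the 55 lists with at least 5 members tested, 48 had a median within 0.3 of 0. Below -0.5 were 5 lists: antimicrobial peptides, GMC oxidoreductases (5 members tested, with only CG9521 at p under 0.05), blood cell markers, phagocytosis receptors and the matrix. Only cuticle proteins were above 0.4, with 10 of 126 genes tested. The lists and their members were chosen with earlier results of these data known, so that this ranking is a description. The GMC oxidoreductase, matrix and cuticle lists hold CG9521, slow and Cpr64Ac, which are among the features of lowest p described above. The lists share members, so that their medians are not separate observations. NimC1, eater and crq are in the blood cell markers and the phagocytosis list, and Col4a1 is in the blood cell markers and the matrix list.

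**Figure D2:**
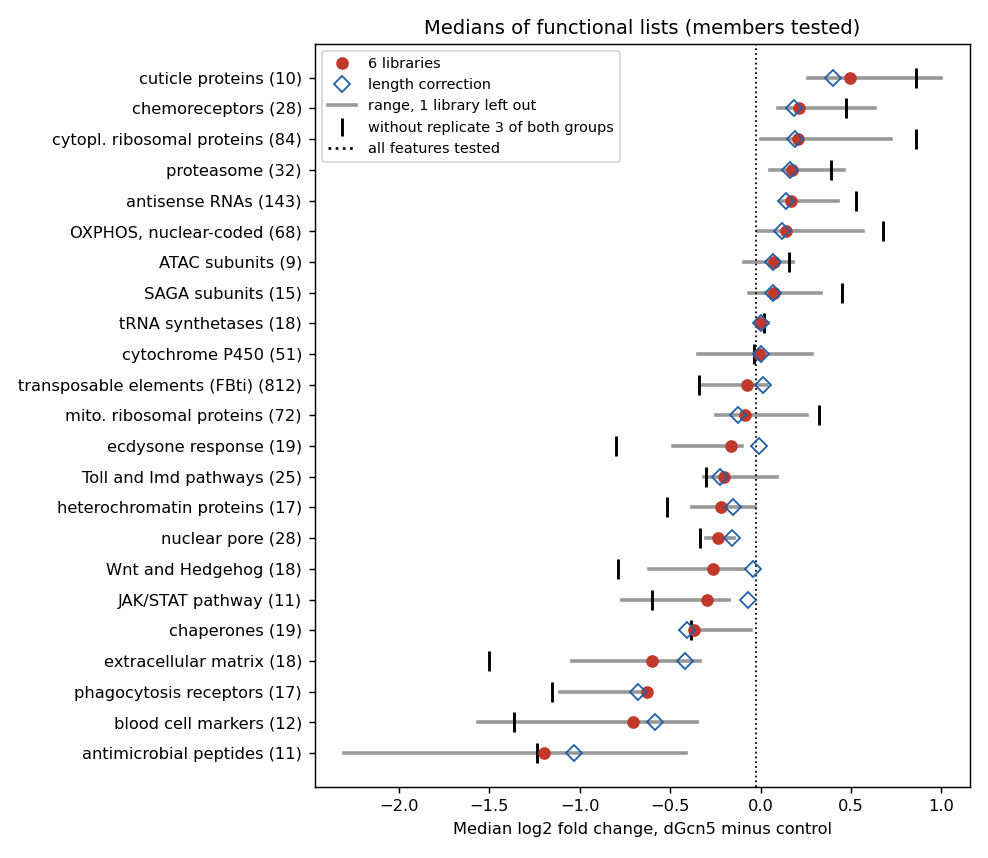
Median log2 fold change of 23 functional lists, dGcn5 minus control, with the number of members tested in brackets: red points use all 6 libraries, blue diamonds the length correction, grey bars span the fits with 1 library left out, black ticks leave out replicate 3 of both groups, and the dotted line is the median over all features tested. Antimicrobial peptides lie lowest, at -1.20, and cuticle proteins highest, at 0.50.

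Blood cells of the fly take up microbes and dying cells through surface receptors, among which the Nimrod proteins carry a characteristic repeat, and they secrete bridging proteins as well. Of 24 phagocytosis genes listed, 17 were tested and 15 were lower in dGcn5 libraries, with a median of -0.63, and -0.67 after length correction. At an unadjusted p under 0.05, 5 were lower, 29.4% of those tested beside 1.65% of all features, and 1 was higher. DESeq2 called NimB1, NimA and NimB5. The secreted Nimrod protein NimB1 was at 16.1, 7.10 and 13.5 CPM in controls and at 1.47, 0.188 and 1.71 CPM in dGcn5 libraries. With a log2 fold change of -3.44 ± 0.74 (edgeR unadjusted p = 0.00192), every dGcn5 library was far below the lowest control. NimB5, another secreted member, was at 83.7, 62.6 and 121 CPM against 32.3, 6.76 and 28.4 CPM. NimA, predicted to span the membrane, was at 7.14, 2.32 and 2.44 CPM against 0.391, 0.235 and 1.13 CPM. Neither gene overlapped between groups, and dGcn5 replicate 2 was the lowest library for each of the 3. The phagocytosis receptor NimC1 was at 35.7% of the control (edgeR unadjusted p = 0.0225), and the scavenger receptor Sr-CII had a log2 fold change of -1.36 (edgeR unadjusted p = 0.0246). eater, a further receptor of bacteria, was at 267, 163 and 232 CPM in controls and at 87.3, 57.0 and 190 CPM in dGcn5 libraries, where replicate 3 overlapped the controls (edgeR unadjusted p = 0.0609). The scavenger receptor crq, which takes up apoptotic cells, lay on the other side, with a log2 fold change of 0.91 (edgeR unadjusted p = 0.0329), and it shares 448 bp of exon with ex on the opposite strand.

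Several of these genes are neighbours on chromosome 2L, and their common position was seen only after the values had been examined. Between 13957539 and 13979569 (BDGP6.32) the table holds 9 features, of which 7 were tested, and all 7 had log2 fold changes below 0, between -3.44 and -1.17. Each but NimB4 was lower at p under 0.05 and with no overlap between groups, beside 1.65% and 4.13% of all features. The ends of this stretch, NimA and Cyp28a5, were also set after the values were seen. The counts within it depend on these ends, and the genes flanking them are not given here. He encodes hemese, a surface protein of blood cells, and stood at 118, 73.1 and 139 CPM in controls and at 62.6, 18.1 and 35.7 CPM in dGcn5 libraries. Cyp28a5, a cytochrome P450 at the end of the stretch, is no immune gene and had a log2 fold change of -1.17 (edgeR unadjusted p = 0.0433). NimB2 and NimB3 were too low to test. The 7 genes kept their sign with each library left out, as did 5384 of all 9820 features. Exons of He and NimB5 share 78 bp and those of NimB1 and NimB2 share 77 bp on opposite strands, so that reads there cannot be assigned without the strand setting.

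**Figure D3:**
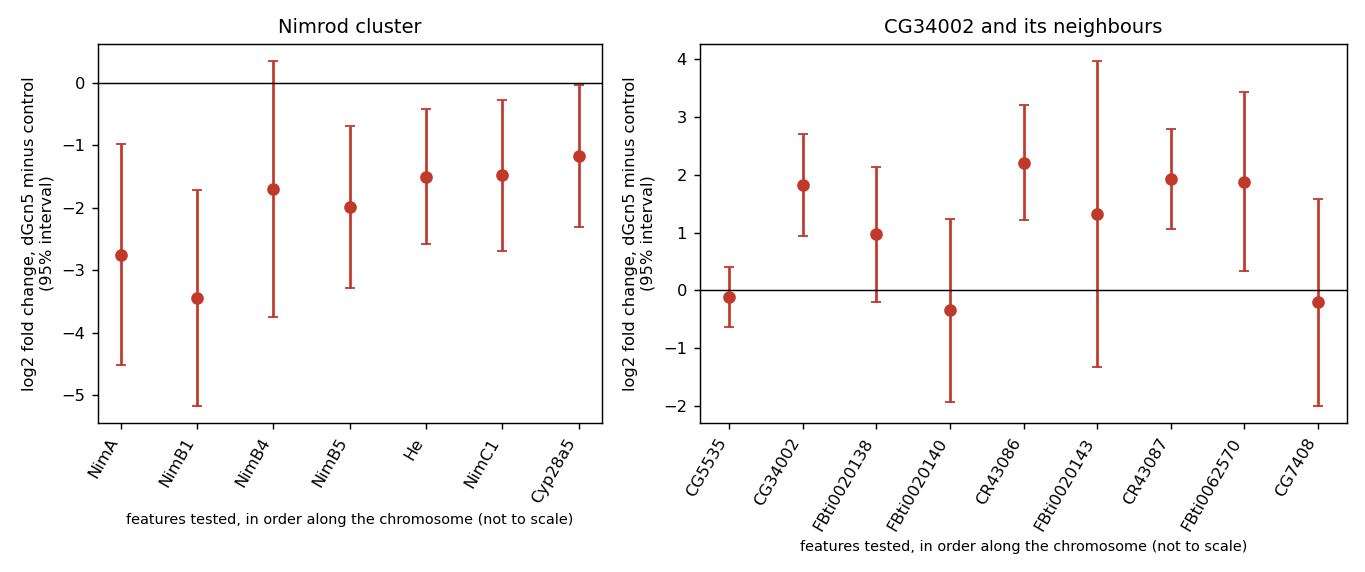
Log2 fold change, dGcn5 minus control, with its 95% interval for the features tested in 2 stretches of the genome, in chromosome order and not to scale. The stretches were chosen after the values were seen. All 7 features of the Nimrod stretch on 2L lie below 0, from -3.44 to -1.17, and on 3L CG34002, CR43086 and CR43087 lie at 1.82, 2.21 and 1.93, while the flanking genes CG5535 and CG7408 lie near 0.

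Antimicrobial peptides are short secreted proteins that flies make on infection, under control of the Toll and Imd pathways. All 11 that were tested, of 17 matched, were lower in dGcn5 libraries, with log2 fold changes between -2.03 and -0.68 and a median of -1.20, or -1.03 after length correction. None of them was at p under 0.05 and none was free of overlap, so that each alone was within the spread between libraries. CecA1, a cecropin, was at 4.19, 2.73 and 9.65 CPM in controls and at 2.30, 1.64 and 3.28 CPM in dGcn5 libraries (edgeR unadjusted p = 0.0655). AttA, an attacin, was at 12.3, 8.31 and 28.4 CPM against 1.86, 3.62 and 11.4 CPM (edgeR unadjusted p = 0.0697), but AttA and AttB are near-identical copies that can share reads. In both genes control replicate 3 was the highest library. The summed level of the 11 genes was 74.0, 56.3 and 202 CPM in controls and 23.7, 27.7 and 86.0 CPM in dGcn5 libraries, and replicate 3 was the highest in each group. Without dGcn5 replicate 3 the median was -2.30, and without control replicate 3 it was -0.41. Among 25 genes of the Toll and Imd pathways themselves the median was -0.20. PGRP-LB, an enzyme that degrades peptidoglycan, was at 7.94, 9.88 and 8.80 CPM against 4.94, 2.91 and 5.98 CPM, the only member at p under 0.05 (edgeR unadjusted p = 0.0322).

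**Figure D4:**
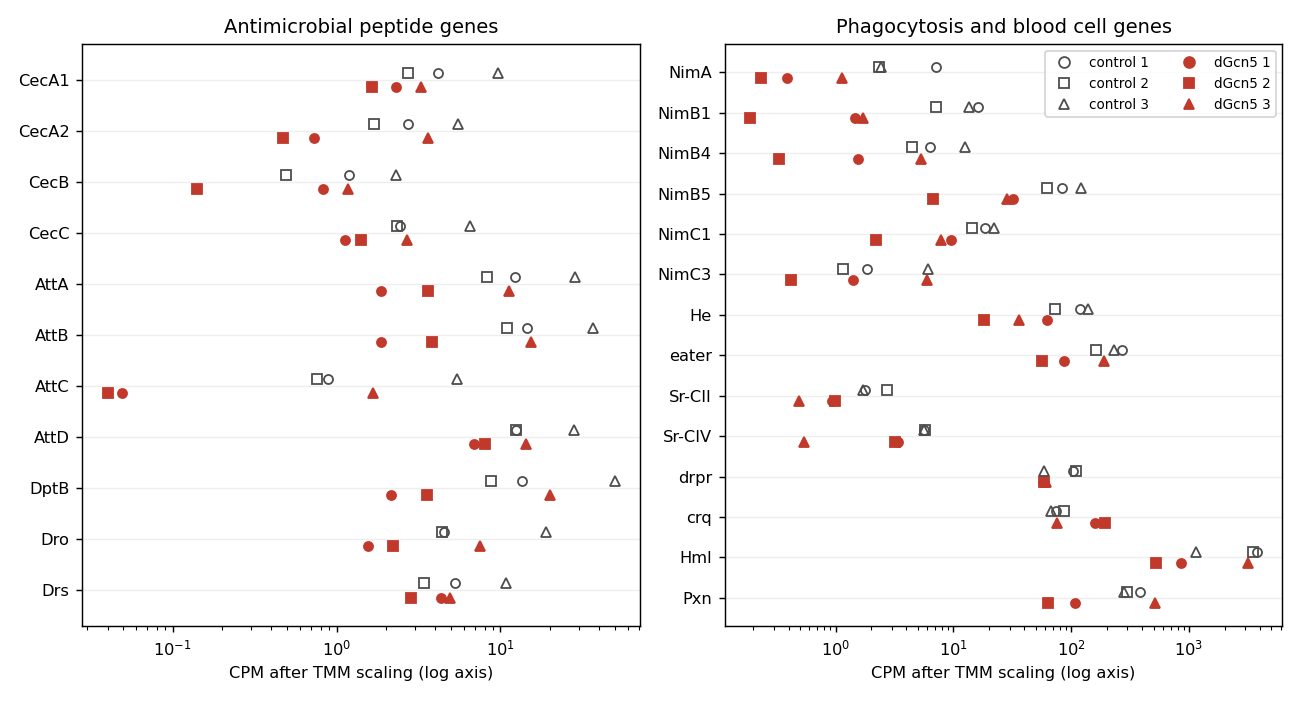
CPM after TMM scaling (log axis) of antimicrobial peptide genes (left) and of phagocytosis and blood cell genes (right), per library, with open symbols for controls and filled symbols for dGcn5 libraries; AttC had 0 counts in dGcn5 replicate 2 and is drawn at the left edge of its panel. The Nimrod genes NimA, NimB1, NimB5 and NimC1 separate the groups, while in the Nimrod gene NimB4, in every antimicrobial peptide gene and in Hml and Pxn the groups overlap.

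Markers of blood cells in general had a median of -0.70 over 12 tested genes, 11 of them below 0. In a bulk sample, fewer cells of a kind and less RNA per cell cannot be told apart. Hml, the abundant plasmatocyte protein hemolectin, was at 3776, 3482 and 1146 CPM in controls and at 862, 521 and 3161 CPM in dGcn5 libraries. Here replicate 3 of each group lay nearest to the other group, and the unadjusted edgeR p was 0.255. Summed over the 16 matched markers, the level was 3789 to 6881 CPM in controls and 1552 to 6494 CPM in dGcn5 libraries, with PPO1, PPO2, lz and gcm, markers of other blood cell types or of early glial and blood fate, too low to test. The summed markers of other tissues overlapped between groups. Germline markers, the most abundant of them, summed to 231 to 641 CPM in controls and 385 to 495 CPM in dGcn5 libraries, and muscle markers to 101 to 230 and 113 to 175 CPM. Neuron markers summed to 26.2 to 44.2 CPM in controls and 31.1 to 43.0 CPM in dGcn5 libraries, and those of fat body and gut to 3.04 to 9.16 and 6.06 to 9.26 CPM. Among the latter Lsp1beta, a larval storage protein, had a log2 fold change of 1.62 (edgeR unadjusted p = 0.0171).

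Matrix genes, of which Col4a1 is also one of the blood cell markers, showed the same side. Of 18 tested, 16 were below 0, beside 52.9% of all features, with a median of -0.60. Their summed level overlapped, at 11499, 11569 and 5406 CPM in controls and 5419, 4675 and 9796 CPM in dGcn5 libraries. At p under 0.05, 2 were lower, 11.1% beside 1.65% of all features. Only slow and Timp, an inhibitor of matrix metalloproteinases near the limit of detection at 0.617, 0.447 and 0.496 against 0.147, 0.0939 and 0.196 CPM (edgeR unadjusted p = 0.0161), were at p under 0.05. The collagen IV gene Col4a1 was at 559, 685 and 266 CPM in controls and at 177, 101 and 431 CPM in dGcn5 libraries, and the laminin gene LanA at 3825, 3884 and 1014 against 1483, 1352 and 2652 CPM. Both overlapped, and in both replicate 3 of each group lay toward the other group. These are long transcripts, with a median exon length of 6060 bp in the list, and its median was -0.42 after length correction and -1.502 without replicate 3 of both groups. The transcript of slow has an exon length of 2364 bp, and its log2 fold change was -2.61 after length correction. Timp shares 249 bp of exon with Syn on the opposite strand. Of 15 integrin adhesion genes, Zasp52, which links integrin sites to actin, was at p under 0.05, with a log2 fold change of -1.12 (edgeR unadjusted p = 0.0162) and -0.70 after length correction.

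In the JAK/STAT list the virus-induced gene vir-1 was at 403, 261 and 574 CPM in controls and at 169, 152 and 128 CPM in dGcn5 libraries, without overlap, and DESeq2 called it (adjusted p = 0.00971). The feedback inhibitor Socs36E had a log2 fold change of -0.90 (edgeR unadjusted p = 0.0252), while the receptor dome, the kinase hop and the transcription factor Stat92E had -0.29, -0.20 and -0.44, all with p above 0.3. Over 11 members the median was -0.29, and -0.07 after length correction. The EGF receptor list had a median of -0.18 over 21 members, and -0.09 after length correction, with 1 member at p under 0.05. This was aos, a secreted inhibitor of the receptor, at 145, 141 and 75.5 CPM against 57.3, 48.4 and 59.6 CPM (edgeR unadjusted p = 0.00521). The Notch list had a median of -0.16 over 17 members, and -0.07 after length correction, also with 1 member at p under 0.05. This was E(spl)m3-HLH, a target of the pathway, with a log2 fold change of -1.73 (edgeR unadjusted p = 0.0121) at a level near 1 CPM. nkd, an inhibitor of Wnt signalling, had -1.54 (edgeR unadjusted p = 0.0321), and 17 of the 18 tested members of the Wnt and Hedgehog list were below 0. The median of that list went from -0.26 to -0.04 with the length correction, and Wnt6, a ligand, had the lowest value of the list, -1.96 (edgeR unadjusted p = 0.0646). RapGAP1, which turns off the small GTPase Rap1, was called by DESeq2 at 22.3% of the control, and dysc, a PDZ-domain protein needed for circadian behaviour, at 14.99%. wun2, a lipid phosphate phosphatase that guides germ cells, and dpr17, a cell surface protein of the immunoglobulin family, were called at 14.4% and 17.3%.

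The genes of the larval and adult cuticle that were tested were read at a median of 0.498 CPM in controls. Their log2 fold changes lay mostly above 0. Only 10 of 126 cuticle protein genes were tested. Since the filter keeps a gene that is read in 1 group alone, neither their count nor their median is a measure of the family. Summed over all 126, the level was 22.6 to 52.8 CPM in controls and 44.0 to 54.6 CPM in dGcn5 libraries, which overlapped. Of these, 9 were above 0, with a median of 0.50. DESeq2 called Cpr64Ac and TwdlE. TwdlE, of the Tweedle family, was at 0.617, 0.581 and 0.767 CPM in controls and at 4.4, 10.2 and 1.08 CPM in dGcn5 libraries, and it shares 968 bp of exon with lectin-28C on the opposite strand. Without control replicate 3 the list's median was 0.995. Ecdysone, the steroid hormone of molting, acts through EcR and usp, and a list of its response genes had a median of -0.16 over 19 members. ETHR was the only higher member at p under 0.05 and Eip55E, which encodes a cystathionine gamma-lyase, the only lower one, at 874, 762 and 978 CPM against 359, 258 and 578 CPM (edgeR unadjusted p = 0.00961). EcR was at 17.4, 20.7 and 4.42 CPM in controls and at 6.84, 5.59 and 11.02 CPM in dGcn5 libraries, and usp at 28.7, 28.8 and 21.7 against 31.8, 31.1 and 25.5 CPM.

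Chemoreceptor genes are normally read in sensory neurons. Of these, 28 of 186 passed the filter here. The filter keeps a gene that is read in 1 group alone, so that counts among the 28 are no measure of the family. At p under 0.05, 4 were higher and 0 lower, 14.3% beside 2.02% of all features. Without overlap between groups 5 were higher and 2 lower, 17.9% and 7.14%, beside 4.01% and 4.13% of all features. Ir40a, a subunit of an ionotropic receptor for dry air, was at 53.3, 44.6 and 37.4 CPM in controls and at 114, 121 and 87.2 CPM in dGcn5 libraries. The groups were separate, and its log2 fold change was 1.25 ± 0.24 (edgeR unadjusted p = 0.000857). Ir54a had a log2 fold change of 1.78 (edgeR unadjusted p = 0.0284), with exon shared with sub over 506 bp on the opposite strand. Or19a and Or19b had 0.72 and 0.63, but these are near-identical copies whose reads cannot be told apart, so that they count as 1 measurement. The median over the 28 was 0.21.

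Genes of detoxification went in both directions. Among 51 cytochrome P450 genes the median was -0.01, with 3 higher and 4 lower at p under 0.05, 5.88% and 7.84%, beside 2.02% and 1.65% of all features. Cyp309a1 was at 1.63, 3.49 and 5.19 CPM in controls and at 28.0, 37.9 and 4.31 CPM in dGcn5 libraries, where replicate 3 lay within the controls, and DESeq2 called it. Cyp6d2 was at 31.2, 33.4 and 50.2 CPM against 8.02, 10.1 and 22.6 CPM (edgeR unadjusted p = 0.00887), lower in every library, though 897 bp of its exon overlap nsr on the opposite strand. In the chaperone list, with a median of -0.37, the small heat shock gene Hsp23 stood out above the rest at 466, 244 and 671 CPM in controls and 1314, 2168 and 706 CPM in dGcn5 libraries (edgeR unadjusted p = 0.0139). DnaJ-1 and Hsp83, for comparison, had log2 fold changes of -0.46 and -0.53, both with p above 0.08. Inx3, a gap junction channel, was at 4.54, 4.69 and 2.30 CPM against 0.538, 0.329 and 1.47 CPM (edgeR unadjusted p = 0.00821), while Inx2 had a log2 fold change of 0.10.

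Lists of housekeeping machinery had medians between -0.26 and 0.21 over all 6 libraries, and some of them moved without replicate 3. Of 84 cytoplasmic ribosomal protein genes, 74 were above 0, with a median of 0.21. The median was 0.72 without control replicate 3 and 0.86 without replicate 3 of both groups. RpS3A was the only one at p under 0.05, at 1115, 1053 and 1682 CPM in controls and 2475, 3013 and 1965 CPM in dGcn5 libraries (edgeR unadjusted p = 0.0128), and the 95% interval lay within 1 of 0 for 17 of the 84. Proteasome subunits had a median of 0.18 and were measured more tightly, with 31 of 32 intervals within 1. The exception was Rpn9, a lid subunit, at 244, 216 and 383 CPM against 170, 173 and 128 CPM (edgeR unadjusted p = 0.0193), with 125 bp of exon shared with CG10365 on the opposite strand, while 30 of the 32 subunits were above 0. Mitochondrial ribosomal proteins had a median of -0.08 with 64 of 72 intervals within 1, and the nuclear genes of oxidative phosphorylation 0.14 with 41 of 68, the latter median being 0.68 without replicate 3 of both groups. The 13 protein genes of the mitochondrial genome had a median of -0.26, with 3 of 13 intervals within 1. tRNA synthetases had a median of 0.00 and DNA replication factors of -0.08, with 15 of 18 and 27 of 30 intervals within 1, so that a 2-fold difference lay outside the interval for most of these genes.

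Subunits of the complexes that hold Gcn5 had medians close to 0 over all 6 libraries. Over 15 SAGA subunits the median was 0.07, and over 9 ATAC subunits 0.08, with 0 members of either at p under 0.05 in either direction and none called by DESeq2. The subunit not, a ubiquitin protease of SAGA, had the lowest p, at 34.2, 36.2 and 32.7 CPM in controls and 53.3, 43.2 and 38.7 CPM in dGcn5 libraries (edgeR unadjusted p = 0.0969). Ada2b, which pairs with Gcn5 in SAGA, was at 69.8, 59.1 and 87.4 against 50.8, 47.5 and 91.0 CPM and overlapped. The intervals lay within 1 of 0 for 11 of 15 SAGA and 6 of 9 ATAC subunits. The SAGA median was 0.33 without control replicate 3 and 0.45 without replicate 3 of both groups, and the ATAC median 0.17 and 0.16. Free of overlap were 1 SAGA subunit, higher (6.67%), and 1 ATAC subunit in each direction (11.1% each). Over all features 4.01% were free of overlap and higher and 4.13% lower. Of 17 heterochromatin protein genes 15 were below 0, with a median of -0.22 and 0 members at p under 0.05. Their median exon length was 3937 bp, and after length correction the median was -0.15. Of 28 nuclear pore genes 25 were below 0, with a median of -0.24, and 4 were free of overlap, all lower, 14.3% beside 4.13% of all features. None was at p under 0.05, and the length-corrected median was -0.16.

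Among 376 tested features annotated as non-coding RNA, 21 were higher and 2 lower at p under 0.05, 5.59% and 0.532%, beside 2.02% and 1.65% of all features, and the median was 0.16. The antisense RNAs among them gave 7 and 0 of 143. DESeq2 called none of the 376. They are the part of 3274 such features that passed the filter, which keeps a feature read in 1 group alone. Without replicate 3 of both groups the median was 0.51. Their median exon length, 967 bp, was below that of all features, 2109 bp, and the length-corrected median was 0.13. The named hairpin RNA hpRNA:CR18854, a precursor of endogenous small interfering RNAs on 2L, was chosen after its values were seen. It was at 326, 323 and 316 CPM in controls and at 687, 657 and 513 CPM in dGcn5 libraries (edgeR unadjusted p = 0.00276, DESeq2 adjusted p = 0.0513), and its exons share 1019 bp with IP3K1 on the opposite strand. asRNA:CR44976 had the lowest p among antisense RNAs, at 3.92, 4.65 and 5.999 CPM against 17.3, 25.4 and 4.21 CPM, with dGcn5 replicate 3 within the controls.

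Transposable element copies, 932 tested, had a median of -0.08, with 21 higher and 9 lower at p under 0.05, 2.25% and 0.966%, beside 2.02% and 1.65% of all features. The groups did not overlap in 50 copies that were higher (5.36%) and 32 that were lower (3.43%), beside 4.01% and 4.13% of all features. With a median exon length of 4725 bp, the median was 0.02 after length correction, and it was -0.40 without replicate 3 of both groups. DESeq2 called 5 of the 932 copies higher and 0 lower, beside 26 higher (0.243%) and 21 lower (0.197%) of 10686 features. The 5 copies were FBti0060302, FBti0019234, RR48393_transposable_element, FBti0019504 and FBti0060949. FBti0019234, on 2L, was at 104.7, 101 and 128 CPM in controls and at 299.6, 385 and 196 CPM in dGcn5 libraries. FBti0060302, also on 2L, was at 11.02, 9.52 and 9.02 CPM against 23.2, 27.7 and 20.4 CPM, and all its 1704 bp lie within another copy, FBti0062928, on the opposite strand. RR48393_transposable_element was at 49.0, 45.4 and 53.5 CPM against 134, 187 and 86.8 CPM. All 3 copies were higher in each dGcn5 library than in any control library. Copies of 1 family can share reads, and how reads with several matches were counted is not given in the sources used here, so that the position of each copy is uncertain.

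A second group of neighbours, on chromosome 3L, contained 3 of the 12 leading higher features. CG34002 and the pseudogenes CR43086 and CR43087 lie between 17858474 and 17876573 (BDGP6.32), with transposable element insertions between and also within them. FBti0062567 lies inside CG34002, FBti0062569 inside CR43086 and FBti0062570 inside CR43087, each on the same strand. FBti0062570 had a log2 fold change of 1.88 (edgeR unadjusted p = 0.0235). CG34002 was at 2.38, 2.46 and 3.29 CPM in controls and at 11.9, 10.7 and 6.17 CPM in dGcn5 libraries, and CR43087 at 4.10, 5.14 and 7.04 against 24.6, 24.5 and 12.9 CPM. CR43086 was at a lower level, 0.661, 0.983 and 0.586 CPM against 3.57, 3.85 and 2.94 CPM. In all 3 the groups were separate. The genes on either side, CG5535 and CG7408, had log2 fold changes of -0.12 (edgeR unadjusted p = 0.596) and -0.21 (edgeR unadjusted p = 0.794). Whether the 3 features share reads was not tested. MESK4 and CG31274, neighbours on 3R, had almost the same level in every library, 16.8 and 16.6 CPM in dGcn5 replicate 1 for example, and both were called higher by DESeq2, so that they also may count as 1 measurement.

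The medians of the large chromosome arms ran from -0.05 on X to 0.01 on 2R. Chromosome 4, rich in heterochromatin, had a median of -0.09 over 128 features, and 0.03 after length correction.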

How the data were processed

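Bulk RNA-seq of 6 libraries was used, 3 given dsRNA against dGcn5 and 3 against yellow for 5 days; 6 further libraries entered only named fits and values. Per the paper's methods, the authors made stranded libraries from polyadenylated RNA with adapters that hold molecular identifiers, removed ribosomal reads, aligned with STAR to BDGP6.32 and counted reads on exons with featureCounts. The authors deposited whole-number read counts for each feature, without normalization. The strand setting, the use of the identifiers in counting and the handling of reads with several matches are not given in the sources used here, so that genes with overlapping exons or near-identical copies are uncertain. Depth was 19102102 to 23198850 counts per library, and the spread between replicates was a biological coefficient of variation of 38.2%.

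Features were filtered with edgeR's filterByExpr (minimum count 10), scaled with TMM and tested in R 4.3.3 with edgeR 4.0.16 (glmQLFit and glmQLFTest), two-sided, with no covariate and Benjamini-Hochberg adjustment over 9820 features at 0.05. Standard errors and 95% intervals were derived from the F statistic. Levels are CPM on the filtered library sizes. The length correction entered each library's lowess trend (span 0.5) of log2 CPM, with a prior count of 2, on exon length as an offset. Alternatives were DESeq2 1.42.0, limma 3.58.1 with quality weights, DESeq2's size factors, other filters, all 12 libraries, the replicate number as a block and each library or replicate 3 of both groups left out. DESeq2 gave no adjusted p for 5516 of 16202 features, which stayed out of its calls. The edgeR fits with and without length correction, DESeq2 and limma-voom were also run on simulated counts, with the outcome not reported here.

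Groups came from the sample labels. Features named are Gcn5 and y, the 12 with the lowest p in each direction outside the study's 19 repair and cell-cycle genes, the 12 in each direction with the lowest adjusted p in DESeq2, the 2 members of each described list with the lowest p, and members of the same family or complex; others were chosen after their values were seen. The members and lists were chosen with earlier results of these data known. Biotypes came from Ensembl release 115 by identifier. No gene set test was run.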

Additional observations from a re-analysis of the deposited data

How the results depend on the processing

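The absence of called features held in the edgeR fits to 6 or 12 libraries, with each filter, scaling, length correction or block, and with any 1 library left out. DESeq2 called 47 features on 6 libraries and 18 on all 12, limma-voom with quality weights 4765, and edgeR 4275 without replicate 3 of both groups. The number at unadjusted p under 0.05, 360, became 550 with DESeq2, 569 without the filter, 813 with the length correction and 5523 with limma-voom. Over the fits that left out libraries it ran from 158, without dGcn5 replicate 1, to 5153, without replicate 3 of both groups, with 1740 without control replicate 3 and 1469 without dGcn5 replicate 3. The 800 features without overlap became 1397 with the length correction and 991 to 7382 with libraries left out, being 3954 without control replicate 3 and 3419 without dGcn5 replicate 3. With fewer libraries there are fewer ways to overlap, so that a higher count is given by construction and says nothing about stability. Gcn5 was called by DESeq2 on 6 libraries (log2 fold change -1.78) and on 12 (-1.77) and by limma-voom (-2.17), and with libraries left out it ranged from -1.97 to -1.54. All 24 leading features kept p under 0.05 and their sign in every fit but that with at least 10 counts in every library, which tested 16 of them. These fits use the libraries that chose the 24 features, so that this is a description.

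List medians moved with replicate 3. With libraries left out they ran from -2.30 to -0.41 for antimicrobial peptides, -1.15 to -0.63 for phagocytosis receptors (-1.11 without dGcn5 replicate 3), -1.502 to -0.34 for the matrix, -1.56 to -0.35 for blood cell markers and 0.26 to 0.995 for cuticle proteins. With limma-voom the medians were -1.05 for phagocytosis receptors and -1.32 for the matrix. The cause was not tested. Over all alternatives, the medians of the other lists stayed within the spread between replicates in 783 cases and moved beyond it in 67. Named features kept their side of the threshold in 736 cases and passed it in 150, and 0 called values changed sign.

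The replicate numbers are shared between groups, and whether they pair the libraries is not stated in the sources used here. Same-numbered deviations from the group means correlated at -0.14, 0.19 and -0.04, and dGcn5 replicates 1 and 3 correlated better with another number. With 3 libraries per group these deviations sum to 0 in each group, so that the correlations cannot settle whether the libraries were paired. With the replicate number as a block, 0 features were called and 350 were at p under 0.05, or 1039 with the length correction, and the median of phagocytosis receptors was -0.88, or -0.91 with the length correction.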
